A study of Homo sapiens with 60 samples.

Results

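The genes described here are 38 regulators and targets of NRF2, the transcription factor encoded by NFE2L2, measured by RNA sequencing in A549, a human lung carcinoma cell line. They were taken by symbol from a fixed list, 1 gene ID each, out of 60675 genes in the deposited table, and all 38 were found. The list holds 3 regulators (NFE2L2, KEAP1, MAFG), 5 genes of haem breakdown and iron storage, 4 of glutathione supply, 4 of the thioredoxin system, 4 of NADPH supply and the pentose phosphate pathway, 11 of quinone, carbonyl and aldehyde reduction or conjugation, 3 export pumps and 4 others. Cells were exposed for 24 h, per the labels, to hot-water plant extracts labelled 500, 100 and 20 µg/mL or to DMSO vehicle; the labels give no genetic modification in any group. Menthae Herba (mint) and Saposhnikoviae Radix are single herbs, while Guibi-tang, Saengmaek-san, Okbyeongpung-san and Soyo-san are decoctions of several. Each of these 6 had 3 libraries per dose, which together with 3 vehicle libraries gave 57 libraries in 19 groups. A further decoction, Soshiho-tang, had 1 library per dose. The sample labels and the text of the series differ on the vehicle, 0.1% against 2% DMSO, and the text also says that extracts toxic below the top dose were given at lower concentrations, so that the dose labels may not be the concentrations used for every extract. Separate cultures are not named in the labels for the replicates of a group. The p-values therefore cover only the spread among these libraries, which may be technical.

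KEAP1 is the adaptor that hands NRF2 to a ubiquitin ligase for destruction, and oxidants or electrophilic plant compounds that modify KEAP1 let NRF2 accumulate. NRF2 then binds, with a small MAF protein such as MAFG, to antioxidant response elements near genes for glutathione synthesis, thiol repair, NADPH supply and the removal of quinones and aldehydes. A549 is known for a loss-of-function mutation of KEAP1, which leaves NRF2 stable and its targets high without any stimulus. The deposited counts hold no sequence variants, so the mutation itself was not examined here. HMOX1, which encodes the haem-degrading enzyme haem oxygenase, differs from most of the other targets in that it is also held down by the haem-sensing repressor BACH1.

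Promoters of the genes show what the binding site looks like. The RefSeq promoter table (GRCh38.p14) held 27 of the 38 genes, and the 250 bases before the annotated start were searched on both strands for the core of the antioxidant response element, TGACNNNGC. The core was present in 7 of the 27 genes (25.9%) and in 13.2% of 27305 genes of the table. The spelling TGACTCAGC of that core, which also contains the AP-1 motif TGACTCA, was present in 1 of the 27 genes and in 0.568% of all genes. Matches of 4 genes are given here, because these are a subunit of glutathione synthesis, KEAP1 itself, a thioredoxin reductase and the only 1 of the 27 genes searched with that spelling. KEAP1 and TXNRD1 each hold a further match that is not shown. Each is written 5′ to 3′ on the strand of its gene, with the core in capitals, and a core on the opposite strand therefore appears as its reverse complement.
GCLM, chr1:93909446-93909474, gene on the minus strand: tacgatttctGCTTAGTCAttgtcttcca
KEAP1, chr19:10502784-10502812, gene on the minus strand: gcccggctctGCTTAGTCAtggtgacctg
TXNRD1, chr12:104215670-104215698, gene on the plus strand: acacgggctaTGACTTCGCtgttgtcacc
ME1, chr6:83431170-83431198, gene on the minus strand: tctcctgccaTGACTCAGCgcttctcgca
In the GENCODE 29 annotation the GCLM and KEAP1 windows shown overlap an exon of the gene, and the TXNRD1 and ME1 windows shown lie outside any annotated transcript. The further TXNRD1 match lies in an exon of TXNRD1. The same letters, GCTTAGTCA, occur before both GCLM and KEAP1. A match describes letters only, and binding was not measured.

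Most of the targets were abundant in vehicle. Levels per length (TPM, a gene's share of all transcripts) were computed from the deposited counts and GENCODE 29 exon lengths, and genes were ranked among 19693 protein-coding genes. FTL, the ferritin light chain, stood at 28004 TPM (rank 5) and FTH1, the ferritin heavy chain, at 5139 TPM (rank 18). AKR1B10, a reductase of aldehydes and retinals, followed at 4477 TPM (rank 21), then the peroxiredoxin PRDX1 at 1647 TPM (rank 37), PGD of the pentose phosphate pathway at 1369 TPM (rank 45) and the quinone reductase NQO1 at 1359 TPM (rank 47). TXN, the thioredoxin itself, had 1097 TPM, AKR1C2, a reductase of ketosteroids, 996 TPM, and TXNRD1 861 TPM. The regulators were far lower, at 61.0 TPM for NFE2L2, 54.9 TPM for KEAP1 and 64.8 TPM for MAFG. HMOX1 stood at 179 TPM (rank 492), below NQO1, and the carbonyl reductase CBR3 was the lowest of the 38 at 13.4 TPM (rank 6745). FTL, FTH1, PRDX1, NFE2L2, AKR1B10 and TRIM16 had counts that were not whole in all 60 libraries, as happens when reads are shared with near-identical copies, and their levels are uncertain to that extent. The same holds for NQO1, AKR1C1 and TRIM16L, whose counts were not whole in 59 of the 60, and for several other genes in fewer libraries. HMOX1 counts were whole in every library.

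**Figure D1:**
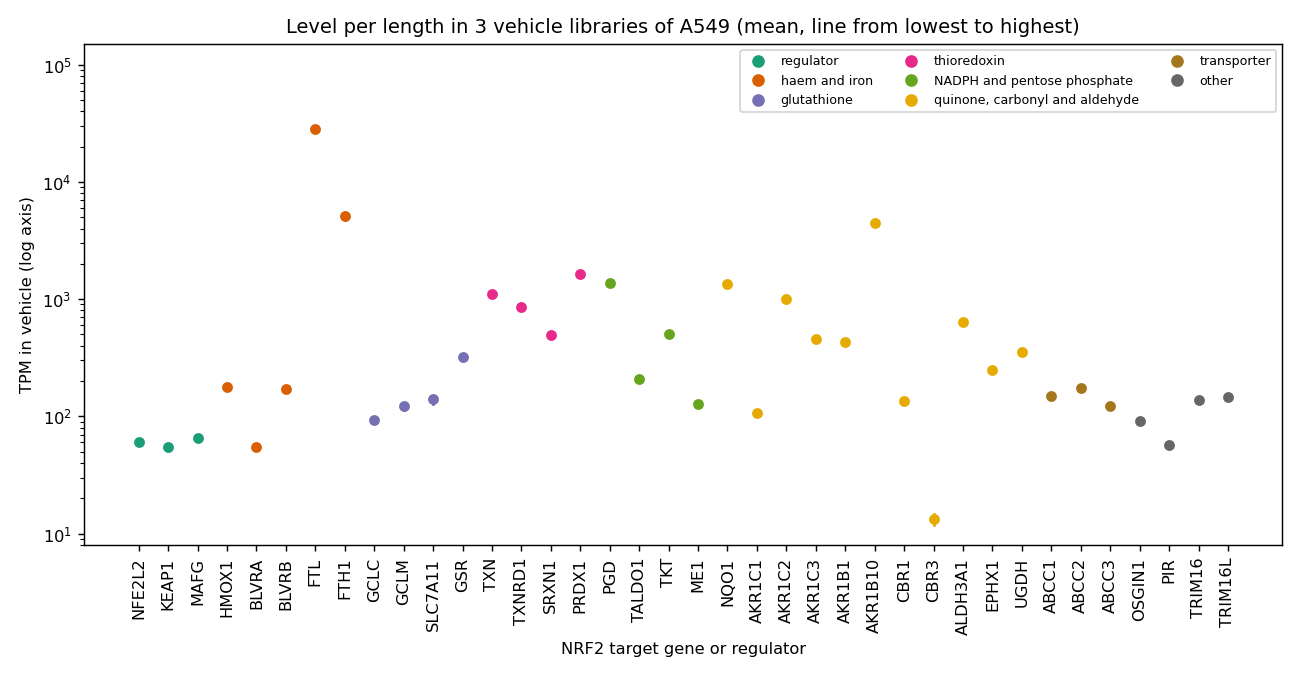
Level per length (TPM, log axis) of the 38 NRF2 genes in 3 vehicle libraries, coloured by role; points are means and lines run from the lowest to the highest library. FTL lies at 28004 TPM and CBR3 at 13.4 TPM, and the 3 regulators lie between 54.9 and 64.8 TPM.

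Library totals ran from 18330631 to 35308811 counts. Libraries differed in a way that the groups do not explain: in the order given by the library names, 31 libraries lay before and 29 after a step in the first principal component, which held 34.3% of the variance. The share of mitochondrial counts was 11.9% before the step (10.7 to 13.9%) and 16.1% after it (12.9 to 22.2%). The first side held vehicle, Menthae Herba, Saposhnikoviae Radix and 10 of 18 libraries of Guibi-tang and Saengmaek-san. The second side held the rest, with every library of Soshiho-tang, Okbyeongpung-san and Soyo-san. Where one of these last 3 extracts is compared with vehicle, extract and side of the step cannot be told apart. A model term for the step takes its size from the Guibi-tang and Saengmaek-san groups alone. Whether the other extracts shifted by the same amount was not tested. In CPM, counts scaled to the library total, the keratins KRT8 (2657 to 3639 CPM) and KRT18 (2229 to 2884 CPM) were the highest of 5 epithelial markers, with medians of 32.0 CPM for CDH1, 25.2 CPM for KRT19 and 4.59 CPM for EPCAM. Of 7 markers of other cell types, the medians of PTPRC (leukocyte), VWF (endothelial) and DCN (fibroblast) were 0 CPM and those of PECAM1 and PDGFRB under 1 CPM, whereas COL1A1, a fibroblast gene, had 31.7 CPM and CD68, a macrophage gene, ran from 6.63 to 19.0 CPM.

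HMOX1 was the gene of the list called with dose in the most extracts, 3 of 6. Gene levels below are CPM of the library total, and changes are log2 fold changes from 1 edgeR quasi-likelihood fit of the 57 libraries with TMM scaling, with Benjamini-Hochberg adjustment over 17256 genes and a call at an adjusted p under 0.05. Because of the TMM scaling, a change need not equal the ratio of the CPM values beside it. HMOX1 (chromosome 22, 35380361 to 35394214, plus strand, GRCh38) had 151, 144 and 141 CPM in the 3 vehicle libraries. With Menthae Herba it had 218, 219 and 223 CPM at 500 µg/mL, 162, 150 and 152 CPM at 100 µg/mL and 150, 146 and 148 CPM at 20 µg/mL. All 3 libraries at 500 lay above every vehicle library and every library at the lower doses. The 500-against-20 change was 0.55 ± 0.0427 (SE), with means of 219.8 ± 2.55 and 147.9 ± 2.44 CPM (SD, n = 3) and an adjusted p of 2.47e-13 in edgeR's test.

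With Guibi-tang HMOX1 had 186, 189 and 178 CPM at 500 µg/mL, 147, 126 and 146 CPM at 100 and 139, 132 and 142 CPM at 20. The top dose again stood apart from both lower doses, and HMOX1 rose by 0.35 ± 0.0429 against 20 (edgeR, adjusted p = 2.49e-07). With Soyo-san the values were 150, 153 and 149 CPM at 500 µg/mL, 125, 144 and 131 CPM at 100 and 130, 122 and 132 CPM at 20. Here HMOX1 rose by 0.23 ± 0.043 against 20 (edgeR, adjusted p = 0.00139), but from a base below vehicle, and the libraries at 500 overlapped those of vehicle. The call was lost when the spread was estimated from these 6 libraries alone (adjusted p = 0.0869), as was the Guibi-tang call (adjusted p = 0.0533), while the changes themselves stayed at 0.23 and 0.35.

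From 20 to 500 µg/mL the change of HMOX1 was smaller in the other extracts. Whether Saposhnikoviae Radix and Soyo-san differed in the change of HMOX1 was not tested. With Saposhnikoviae Radix it had 174, 174 and 167 CPM at 500 µg/mL, 152, 147 and 144 CPM at 100 and 152, 146 and 150 CPM at 20, so the groups at 500 and 20 did not overlap. The 500-against-20 change of 0.19 (95% interval 0.10 to 0.27) was not called by edgeR (adjusted p = 0.0712). It was called with DESeq2 (adjusted p = 0.0103), with the step as a term (0.031), in the libraries before the step alone (0.0163) and in a fit of its 6 libraries (0.013). With Okbyeongpung-san HMOX1 had 153, 157 and 149 CPM at 500 µg/mL against 138, 141 and 133 CPM at 20, a change of 0.13 (95% interval 0.04 to 0.22; edgeR adjusted p = 0.806). With Saengmaek-san it had 151, 148 and 135 CPM at 500 µg/mL against 144, 139 and 124 CPM at 20, and these groups overlapped (change 0.08, 95% interval -0.01 to 0.17). Replicate numbers paired the libraries in this comparison, and each library at 500 lay above that of the same number at 20, without a call. Replicates 1 and 2 of both groups lay before the step and replicate 3 of both after it. The part of the step in this pairing was not tested. HMOX1 showed the highest change of the 38 genes in 5 of the 6 extracts, Saengmaek-san being the exception, where UGDH, a supplier of glucuronic acid, was marginally higher at 0.08. At 100 µg/mL HMOX1 was not called against vehicle in any of the 6 extracts, with changes from -0.10 in Soyo-san to 0.05 in Menthae Herba.

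**Figure D2:**
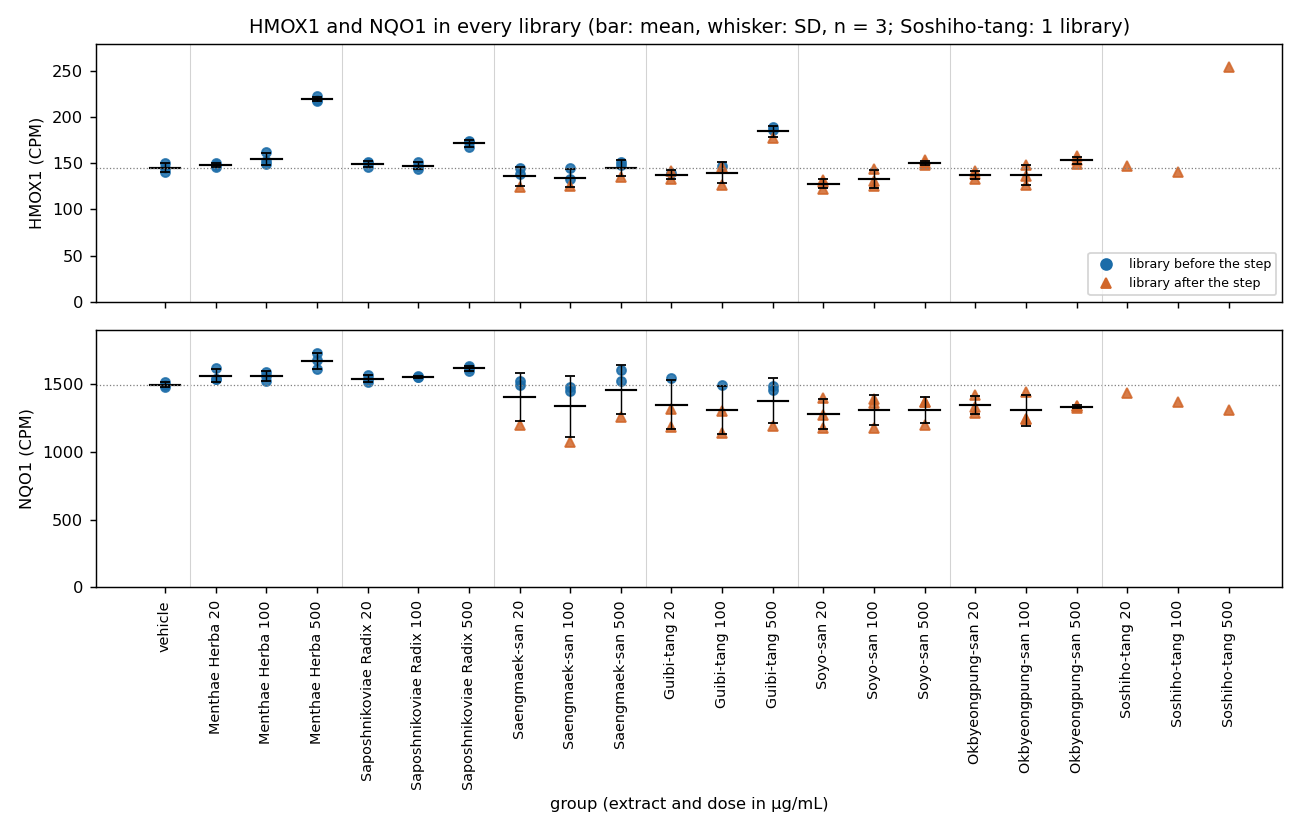
CPM of HMOX1 (top) and NQO1 (bottom) in all 60 libraries, grouped by extract and dose (µg/mL); bars are means and whiskers SD of 3 libraries, the dotted line is the vehicle mean, and colour and symbol mark libraries before or after the step in the library order. HMOX1 stands highest at 500 µg/mL of Soshiho-tang (254 CPM, 1 library) and of Menthae Herba (219.8 CPM), while NQO1 is lower in libraries after the step.

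The HMOX1 response differed between extracts by direct test. The change from 20 to 500 µg/mL was larger with Menthae Herba than with Saposhnikoviae Radix by 0.37 (95% interval 0.25 to 0.49; edgeR, adjusted p = 0.000474). Soyo-san, a decoction that contains Menthae Herba, had a smaller change than the herb, by -0.32 (95% interval -0.45 to -0.20; edgeR, adjusted p = 0.00182). Doses are labelled for the whole extract, and the labels do not give the amount of a herb in a decoction. The Saengmaek-san change was smaller than that of Guibi-tang by -0.27 (95% interval -0.39 to -0.15; edgeR, adjusted p = 0.0222), a call that was lost in 5 of its leave-one-out fits, without Saengmaek-san 20 replicate 1 (0.147), 500 replicate 2 (0.0668) or 500 replicate 3 (0.0627), or without Guibi-tang 20 replicate 1 (0.0629) or 500 replicate 3 (0.0712). With scaling by library totals the Soyo-san difference (-0.34; adjusted p = 0.0617) and the Saengmaek-san difference (-0.33; 0.063) were no longer called, and without the filter on low counts the latter (-0.27; 0.131). No difference was called between Soyo-san and Okbyeongpung-san (0.10, 95% interval -0.02 to 0.22) or between Okbyeongpung-san and its herb Saposhnikoviae Radix (-0.06, 95% interval -0.18 to 0.07). Of the 38 genes, HMOX1 alone was called in these 5 tests, in 3 of them, where 0.197% (Menthae Herba and Saposhnikoviae Radix), 0.29% (Soyo-san and Menthae Herba) and 0.296% (Saengmaek-san and Guibi-tang) of all genes were called. In the other two tests 0.029% and 0.0464% of all genes were called. NQO1 was not called in any of the 5, with differences from -0.09 to 0.08.

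NQO1, the classic marker of NRF2 activity (chromosome 16, 69706996 to 69726951, minus strand), was not called at 500 against 20 µg/mL in any extract. With Menthae Herba it had 1726, 1609 and 1676 CPM at 500 µg/mL against 1614, 1532 and 1537 CPM at 20 and 1514, 1473 and 1494 CPM in vehicle. The groups at 500 and 20 overlapped, and the change was 0.08 (95% interval -0.05 to 0.21). With Saposhnikoviae Radix it had 1594, 1634 and 1615 CPM at 500 µg/mL against 1537, 1564 and 1512 CPM at 20, a change of 0.05 (95% interval -0.08 to 0.18). The latter groups did not overlap. In Guibi-tang NQO1 had 1485, 1454 and 1187 CPM at 500 µg/mL against 1539, 1182 and 1313 CPM at 20. In Soyo-san it had 1196, 1364 and 1364 CPM against 1272, 1171 and 1393 CPM, and in Okbyeongpung-san 1338, 1319 and 1333 CPM against 1331, 1416 and 1282 CPM. The doses overlapped in each of these. In the 4 decoctions the changes were 0.04 for Saengmaek-san, -0.04 for Guibi-tang, 0.03 for Soyo-san and -0.04 for Okbyeongpung-san, and the Guibi-tang value turned to 0.03 with scaling by library totals. All 6 intervals lay between -0.17 and 0.21. NQO1 was split by the step within groups. In Guibi-tang, 500 replicates 1 and 2 but only 20 replicate 1 lay before the step, so this dose contrast is uneven across it for every gene. The Saengmaek-san libraries at 500 µg/mL had 1518 and 1600 CPM before the step and 1255 CPM after it, and those at 20 had 1519 and 1491 CPM before and 1195 CPM after.

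The remaining genes of the list moved by little with dose. In Menthae Herba 3 of the 38 genes rose and 1 fell from 20 to 500 µg/mL, where 0.898% of all genes rose and 1.54% fell. Besides HMOX1, these were both subunits of glutamate-cysteine ligase, the rate-limiting enzyme of glutathione synthesis, and an export pump. GCLC, the catalytic subunit (chromosome 6, 53497341 to 53616970), had 314, 303 and 307 CPM at 500 against 276, 267 and 262 CPM at 20, and rose by 0.18 ± 0.0289 (edgeR, adjusted p = 3.1e-05). GCLM, the modifier subunit (chromosome 1, 93885205 to 93909456), had 275, 270 and 278 CPM at 500 against 229, 236 and 240 CPM at 20, and rose by 0.20 ± 0.0443 (edgeR, adjusted p = 0.00302). Neither pair of groups overlapped. ABCC3, a pump for glucuronide and glutathione conjugates (chromosome 17, 50634777 to 50692252), had 408, 407 and 393 CPM at 500 against 429, 440 and 459 CPM at 20. It fell by 0.15 on the log2 scale (edgeR, adjusted p = 0.00409), a call that was lost without Menthae Herba 500 replicate 3 (adjusted p = 0.0704) or 20 replicate 3 (0.0718). With scaling by library totals the GCLM (0.116) and ABCC3 (0.215) calls were lost, and without the filter on low counts those of GCLC (0.115) and ABCC3 (0.153).

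Of the other glutathione genes in Menthae Herba, the cystine importer SLC7A11 changed by 0.02 (95% interval -0.13 to 0.18) and the glutathione reductase GSR by less than 0.01. The 4 thioredoxin genes, TXN, TXNRD1, SRXN1 and PRDX1, were not called and ranged from 0.00 (TXNRD1) to 0.07 (TXN). The 4 NADPH genes PGD, TALDO1, TKT and ME1 ranged from -0.05 (PGD) to -0.02 (TALDO1), also without a call. Among the 11 quinone, carbonyl and aldehyde genes none was called, and the widest value was that of the aldehyde dehydrogenase ALDH3A1, 0.16 (edgeR, adjusted p = 0.145). The regulators were not called either, with 0.06 for NFE2L2, 0.05 for KEAP1 and 0.13 for MAFG. In all, 29 of the 38 genes were above 0 with a median of 0.05, against a median of -0.001 over all genes, and 36 had a 95% interval within 1.3-fold in either direction.

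Guibi-tang raised 1 and lowered 1 of the 38 genes from 20 to 500 µg/mL, where 0.748% of all genes rose and 0.249% fell. The gene that fell was ALDH3A1 (chromosome 17, 19737984 to 19748943), with 702, 661 and 648 CPM at 500 against 760, 727 and 752 CPM at 20. The groups did not overlap, and the change was -0.23 ± 0.0569 (edgeR, adjusted p = 0.0299). This ALDH3A1 call did not hold without Guibi-tang 500 replicate 1 (adjusted p = 0.0556) or 2 (0.307) or 20 replicate 2 (0.17) or 3 (0.0979), nor with scaling by library totals (-0.16; 0.255) and in a fit of these 6 libraries alone (0.414). In Soyo-san 1 gene, HMOX1, rose and 0 fell, where 0.33% of all genes rose and 0.284% fell. In Saposhnikoviae Radix none of the 38 was called by edgeR, where 0.029% of all genes rose and 0.0522% fell, while 5 had an unadjusted p under 0.05, as had 3.57% of all genes, and DESeq2 called 1 of the 38 and 24 of all genes. In Saengmaek-san 0 of the 38 were called, where 0% of all genes rose and 0% fell, with 1 gene of the list and 2.72% of all genes at an unadjusted p under 0.05, and 0 of the list and 2 of all genes called by DESeq2. In Okbyeongpung-san 0 of the 38 were called, where 0.0985% of all genes rose and 0% fell, with 2 genes of the list and 3.84% of all genes at an unadjusted p under 0.05, and 0 of the list and 20 of all genes called by DESeq2. The number of genes with a 95% interval within 1.3-fold was 37 in Saposhnikoviae Radix, 38 in Saengmaek-san, 36 in Guibi-tang, 37 in Soyo-san and 38 in Okbyeongpung-san. The share of all genes with such an interval was not computed in any extract. In Saposhnikoviae Radix 35 of the 38 values were above 0 with a median of 0.04, against 16 of 38 and a median of -0.01 in Okbyeongpung-san.

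**Figure D3:**
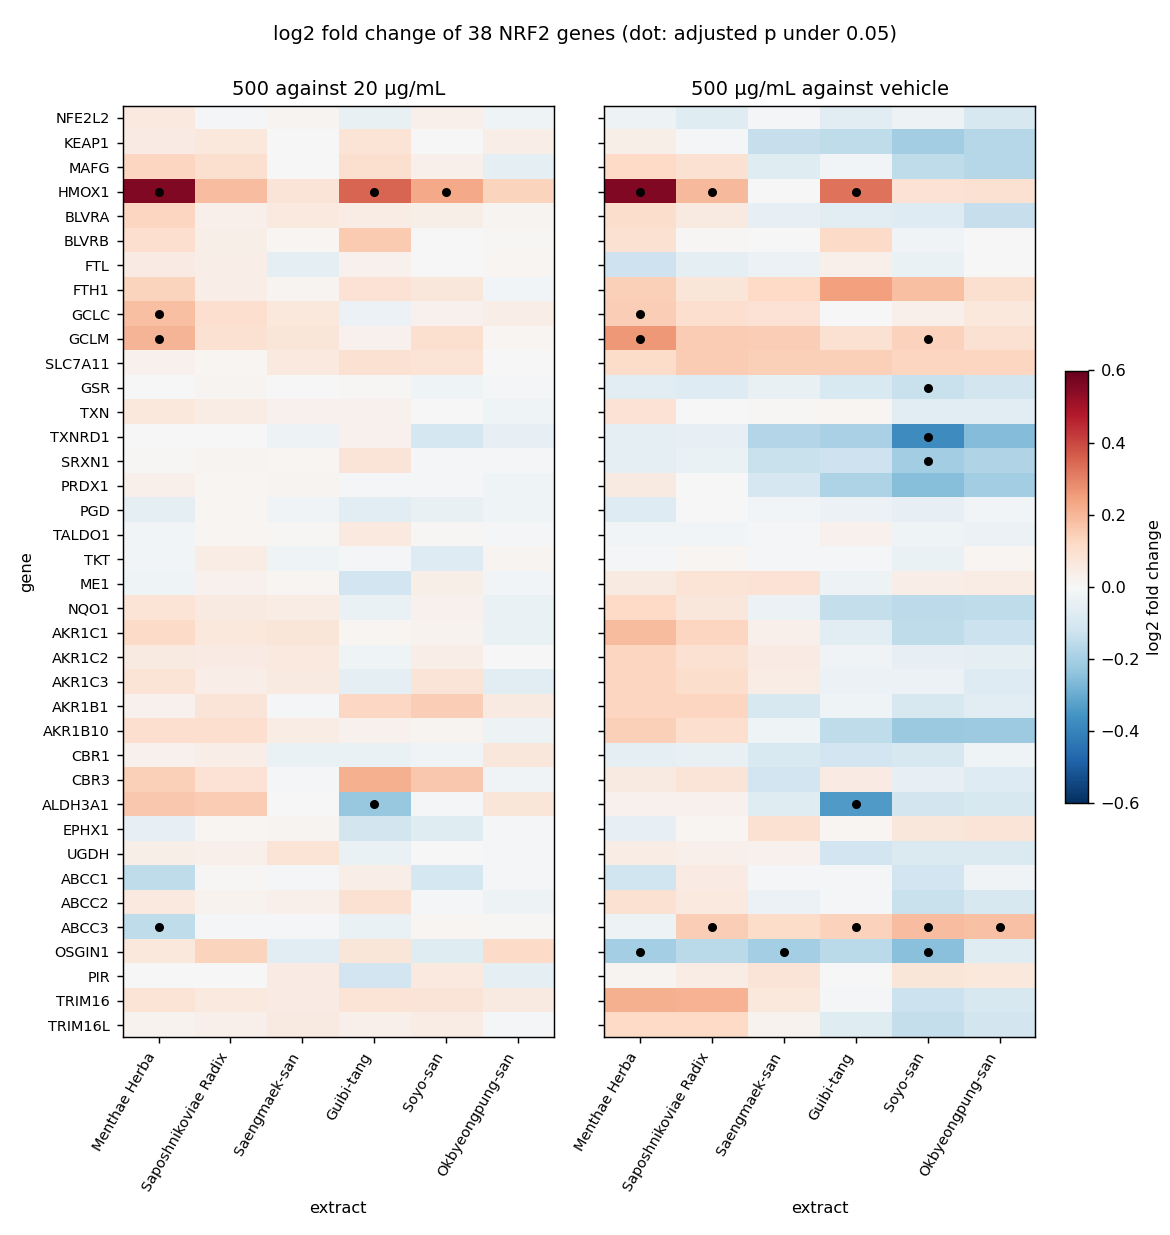
Log2 fold change of the 38 NRF2 genes (rows, ordered by role) in 6 extracts, at 500 against 20 µg/mL (left) and at 500 µg/mL against vehicle (right); a dot marks an adjusted p under 0.05. HMOX1 is the darkest row on the left, with calls in Menthae Herba (0.55), Guibi-tang (0.35) and Soyo-san (0.23), and the vehicle comparisons add calls of OSGIN1 and ABCC3.

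Against vehicle, at 500 µg/mL, HMOX1 rose with Menthae Herba (0.55 ± 0.0425; edgeR, adjusted p = 1.81e-13), Guibi-tang (0.33 ± 0.0426; adjusted p = 5.68e-07) and Saposhnikoviae Radix (0.20 ± 0.0426; adjusted p = 0.00697). The last call was lost without vehicle replicate 3 (adjusted p = 0.0541) or Saposhnikoviae Radix 500 replicate 1 (0.0585). HMOX1 was not called with Soyo-san (0.09, 95% interval 0.00 to 0.17), Okbyeongpung-san (0.09, 95% interval 0.01 to 0.18) or Saengmaek-san (95% interval -0.09 to 0.08). All of these comparisons share the same 3 vehicle libraries, so a level that is unusual in vehicle enters every one of them. In Menthae Herba 3 of the 38 genes rose and 1 fell against vehicle, where 3.36% of all genes rose and 3.44% fell. GCLM (0.26 ± 0.0442; edgeR, adjusted p = 6.9e-05) and GCLC (0.15 ± 0.0288; adjusted p = 0.000493) rose again, and the vehicle libraries had 230, 211 and 226 CPM of GCLM and 273, 274 and 263 CPM of GCLC, all below the libraries at 500. The GCLC call was lost without the filter on low counts (0.14; adjusted p = 0.198).

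OSGIN1, an oxidative stress-induced growth inhibitor (chromosome 16, 83948282 to 83966332), was the gene that fell in Menthae Herba. It had 109, 106 and 106 CPM in vehicle and 98.6, 92.1 and 96.4 CPM with Menthae Herba at 500 µg/mL, a change of -0.20 ± 0.0506 (edgeR, adjusted p = 0.00819), lost without Menthae Herba 500 replicate 2 (0.055) and with scaling by library totals (0.27). It also had 89.8, 89.9 and 91.7 CPM at 20 µg/mL, further below vehicle than at 500, with a change of -0.27 ± 0.0506 (edgeR, adjusted p = 0.0052). OSGIN1 lay below vehicle in 18 of 18 extract and dose groups, as did NFE2L2, GSR, TXNRD1, SRXN1 and CBR1. All 18 groups are set against the same 3 vehicle libraries, and the share of all genes with such a count was not computed. OSGIN1 was not called at 500 against 20 µg/mL in any extract. In Saposhnikoviae Radix its 3 libraries at 500 all lay above those at 20 (change 0.13). It was called lower at 500 µg/mL in Menthae Herba, Saengmaek-san (-0.20; adjusted p = 0.0471, lost without any 1 of the 3 vehicle libraries (0.134 to 0.152) and without Saengmaek-san 500 replicate 2, 0.172, or 3, 0.283, with library totals, 0.409, without the filter, 0.0583, and in a fit of its 6 libraries, 0.462) and Soyo-san (-0.25; adjusted p = 0.00103). ABCC3 lay on the other side. It had 409, 394 and 396 CPM in vehicle and lay above vehicle in 17 of 18 groups, the exception being Menthae Herba at 500 µg/mL. GCLC and ME1 also lay above in 17 of 18 groups, and FTH1, GCLM, SLC7A11 and PIR in 18 of 18. ABCC3 was called higher at 500 µg/mL in Saposhnikoviae Radix (0.15), Guibi-tang (0.14), Soyo-san (0.18) and Okbyeongpung-san (0.18). The Saposhnikoviae Radix call was lost without vehicle replicate 2 (adjusted p = 0.083) or 3 (0.0508) or 500 replicate 2 (0.0538) or 3 (0.124), and that of Guibi-tang without vehicle replicate 2 (0.0648) or 500 replicate 3 (0.0602). With scaling by library totals the Guibi-tang (0.0755), Soyo-san (0.0892) and Okbyeongpung-san (0.0884) calls of ABCC3 were lost. Without the filter on low counts those of Saposhnikoviae Radix (0.222), Guibi-tang (0.323) and Okbyeongpung-san (0.0771) were lost, and that of Guibi-tang also in a fit of its 6 libraries alone (0.127).

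**Figure D4:**
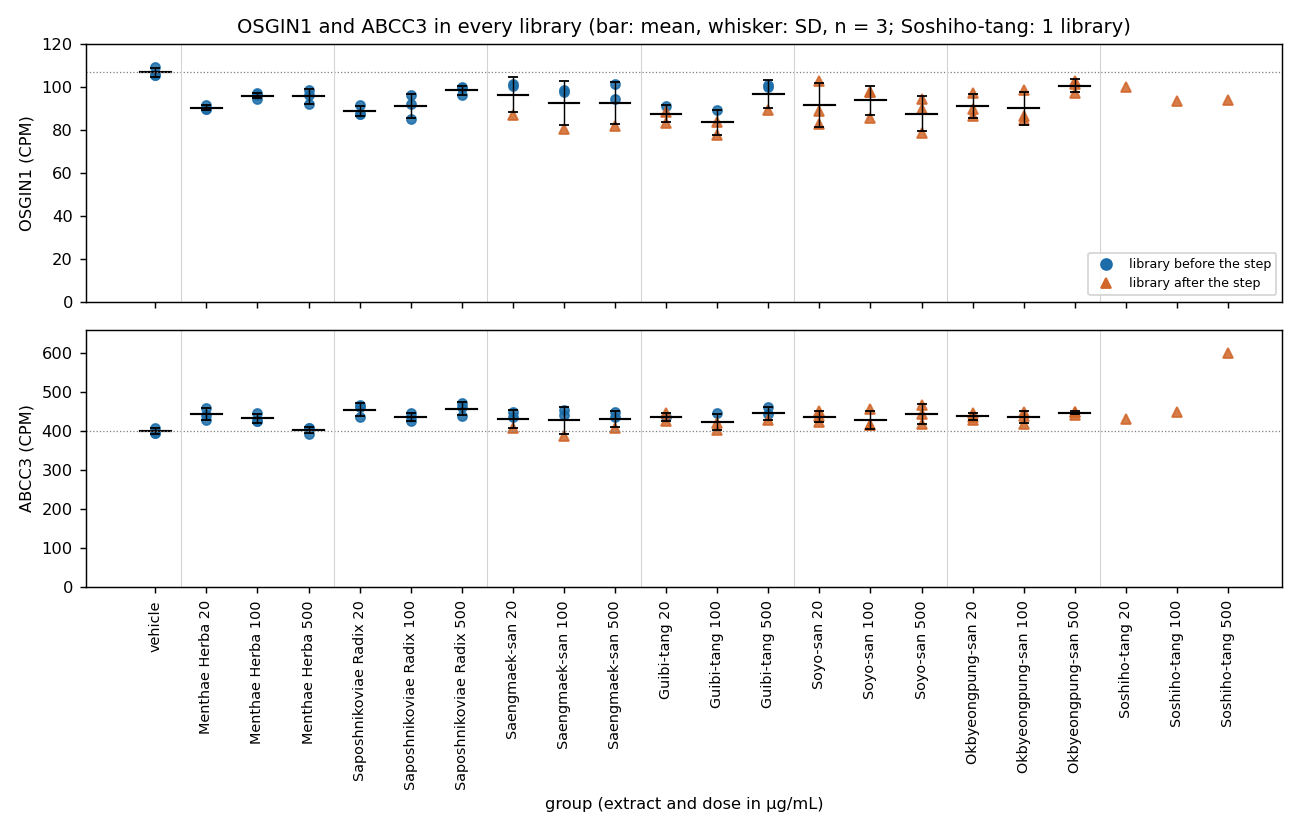
CPM of OSGIN1 (top) and ABCC3 (bottom) in all 60 libraries, grouped by extract and dose (µg/mL); bars are means and whiskers SD of 3 libraries, and the dotted line is the vehicle mean. OSGIN1 is highest in vehicle (106 to 109 CPM), and ABCC3 in vehicle (394 to 409 CPM) lies near the lower end of all libraries, with 599 CPM in the Soshiho-tang library at 500 µg/mL.

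NQO1 was not called against vehicle at 500 µg/mL in any extract, with changes of 0.12 in Menthae Herba, 0.07 in Saposhnikoviae Radix, -0.04 in Saengmaek-san, -0.14 in Guibi-tang, -0.16 in Soyo-san and -0.15 in Okbyeongpung-san. In fits of the 6 libraries of a comparison alone it was called in Menthae Herba (adjusted p = 0.00552), Saposhnikoviae Radix (0.0335), Soyo-san (0.024) and Okbyeongpung-san (0.000101), with the first pair higher and the last pair lower than vehicle. Saposhnikoviae Radix had 2 higher (HMOX1, ABCC3) and 0 lower, where 0.921% of all genes rose and 0.643% fell. Saengmaek-san had 0 higher and 1 lower (OSGIN1), where 0.354% rose and 0.261% fell. Guibi-tang had 2 higher (HMOX1, ABCC3) and 1 lower, where 2.63% rose and 1.78% fell. The lower one was ALDH3A1, with 880, 814 and 823 CPM in vehicle and a change of -0.34 ± 0.0568 (edgeR, adjusted p = 6.56e-05). It lay below vehicle with Guibi-tang at 100 µg/mL as well (-0.22; adjusted p = 0.0306). Okbyeongpung-san had 1 higher (ABCC3) and 0 lower, where 1.96% rose and 1.43% fell.

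Soyo-san had 2 higher (ABCC3, GCLM) and 4 lower against vehicle at 500 µg/mL, where 3.11% of all genes rose and 2.91% fell. TXNRD1, the cytosolic thioredoxin reductase (chromosome 12, 104215779 to 104350305), had 1353, 1504 and 1544 CPM against 1918, 1961 and 1973 CPM in vehicle, a change of -0.38 ± 0.0833 (edgeR, adjusted p = 0.00307). SRXN1, the sulfiredoxin that restores oxidised peroxiredoxins, had 343, 399 and 407 CPM against 447, 455 and 459 CPM (-0.21 ± 0.0618; edgeR, adjusted p = 0.0309), and GSR changed by -0.13 ± 0.0326 (adjusted p = 0.00825). All Soyo-san libraries lay after the step and all vehicle libraries before it. A step term therefore applies to them a shift measured in Guibi-tang and Saengmaek-san. With the step as a term the changes were -0.07 for TXNRD1 (adjusted p = 0.302), -0.02 for SRXN1 (0.808) and -0.05 for GSR (0.253), and none was called. With scaling by library totals the calls of SRXN1 (0.161), GSR (0.158) and GCLM (0.449) were lost too, as were those of GSR (0.178) and GCLM (0.21) without the filter on low counts. TXNRD1 did not differ by call between 500 and 20 µg/mL of Soyo-san (-0.10, 95% interval -0.27 to 0.06). GSR was also lost without vehicle replicate 2 (0.0575). The SRXN1 call did not hold without vehicle replicate 1 (0.0545), 2 (0.0951) or 3 (0.114) or Soyo-san 500 replicate 1 (0.208) or 2 (0.0585), and that of GCLM (0.14; adjusted p = 0.0498) was lost whichever of the 6 libraries was left out (0.0601 to 0.258).

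At the lower doses OSGIN1, ABCC3 and ALDH3A1 were the only genes of the 38 called against vehicle in the fit of 57 libraries. At 100 µg/mL OSGIN1 was called lower in Menthae Herba, Saposhnikoviae Radix, Guibi-tang and Okbyeongpung-san, from -0.19 to -0.31, and ABCC3 higher in Saengmaek-san, Soyo-san and Okbyeongpung-san, from 0.13 to 0.15. With ALDH3A1 in Guibi-tang these were 1, 1, 1, 2, 1 and 2 calls in Menthae Herba, in Saposhnikoviae Radix, in Saengmaek-san, in Guibi-tang, in Soyo-san and in Okbyeongpung-san, where 0.974%, 0.666%, 0.666%, 1.41%, 1.78% and 1.37% of all genes were called. At 20 µg/mL OSGIN1 was called lower in Menthae Herba, Saposhnikoviae Radix, Guibi-tang and Soyo-san, from -0.18 to -0.29, and ABCC3 higher in Saposhnikoviae Radix, Guibi-tang, Soyo-san and Okbyeongpung-san, from 0.16 to 0.18. These were 1, 2, 0, 2, 2 and 1 calls in the same order, where 0.382%, 0.991%, 0.452%, 1.35%, 2% and 1.09% of all genes were called. For Saengmaek-san at 20 µg/mL, 4 genes of the list and 8.9% of all genes had an unadjusted p under 0.05. Without TMM scaling, on library totals, 0 genes of the list were called at 20 µg/mL in any extract. NQO1 was not called at either dose, with changes from -0.17 to 0.04 at 100 µg/mL and from -0.18 to 0.04 at 20, and HMOX1 at 20 lay between -0.14 in Soyo-san and 0.01 in Saposhnikoviae Radix.

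More genes of the list were called in the herbs against vehicle when the libraries after the step were left out. A fit of 29 of the 31 libraries before the step (groups with at least 2 there), chosen after the data were seen, gave NQO1 with Menthae Herba a change of 0.12 with an SE of 0.0265, where the fit of 57 libraries gave 0.12 with an SE of 0.0654. NQO1 was then called (adjusted p = 0.00179, against 0.322 in all 57 libraries). In this fit 14 of the 38 genes were higher and 2 lower with Menthae Herba at 500 µg/mL than in vehicle, where 7.85% of all genes were higher and 7.99% lower. The 14 were HMOX1, FTH1, GCLC, GCLM, MAFG, NQO1, the steroid and aldehyde reductases AKR1C1 (0.19), AKR1C2 (0.13), AKR1C3 (0.13), AKR1B1 (0.13) and AKR1B10 (0.14), the export pump ABCC2 (0.09) and the tripartite motif genes TRIM16 (0.22) and TRIM16L (0.12). The 2 lower were OSGIN1 and the export pump ABCC1 (-0.12). Saposhnikoviae Radix had 11 higher and 2 lower, where 4.77% of all genes were higher and 5.06% lower, again with TRIM16 (0.21), AKR1C1 (0.13) and AKR1B1 (0.13) among the higher. Saengmaek-san had 3 higher and 1 lower, where 1.03% of all genes were higher and 1.28% lower, and Guibi-tang 5 higher and 4 lower, where 5.53% were higher and 5.64% lower. SLC7A11 and GCLM were among the higher in both (0.20 and 0.16 in Saengmaek-san, 0.23 and 0.14 in Guibi-tang). Names of vehicle libraries begin with B1 and those of the herbs with 5, so herb and name series cannot be told apart. At 20 µg/mL this fit called 757 (Menthae Herba) and 1091 (Saposhnikoviae Radix) of all genes against vehicle. With Menthae Herba at 20, AKR1B1 had 603, 574 and 580 CPM against 543, 528 and 541 CPM in vehicle, and TRIM16 also lay above vehicle. HMOX1 and GCLC overlapped vehicle at that dose. For 500 against 20 µg/mL the same fit called 5 higher and 2 lower in Menthae Herba, where 2.11% and 3.11% of all genes were called, and MAFG (0.13), AKR1B10 (0.10) and ABCC1 (-0.15) joined the calls of the larger fit. NQO1 was not among them (0.08; adjusted p = 0.0729). HMOX1 was the 1 gene called in Saposhnikoviae Radix, where 0.0404% of all genes rose and 0.139% fell, and 0 were called in Saengmaek-san, where 0% of all genes were. AKR1C1, AKR1C2 and AKR1C3 are close relatives whose counts were not whole in nearly all libraries, and their separate values are uncertain.

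Within groups, many of the targets shifted at the step in the library order. Since the step was read from these libraries, its size is a description, with no test. It comes from the groups of Guibi-tang and Saengmaek-san, the only ones with libraries on both sides. After allowing for groups, 25 of the 38 genes lay lower after the step and 13 higher, with a median of -0.10 against -0.004 over all genes. The lowest were AKR1B1, the aldose reductase (-0.37), CBR3 (-0.35), TRIM16 (-0.33) and TXNRD1 (-0.30). NQO1 shifted by -0.20 and KEAP1 by -0.28. On the other side were EPHX1, a microsomal epoxide hydrolase (0.27), and FTH1 (0.25). HMOX1 shifted by 0.02. With the step as a term, NQO1 against vehicle at 500 µg/mL was 0.05 in Soyo-san and 0.05 in Okbyeongpung-san, where it was -0.16 and -0.15 without the term, and it was called in neither case.

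**Figure D5:**
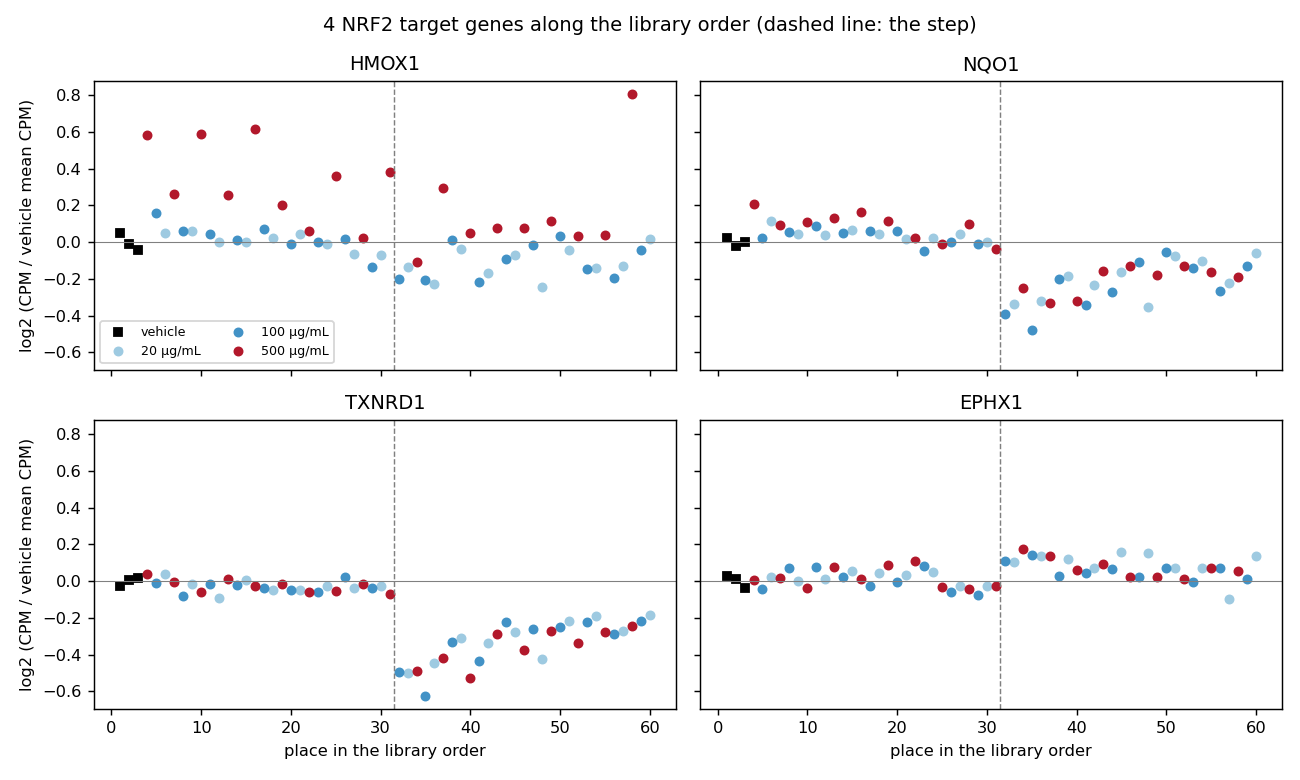
Log2 ratio of CPM to the vehicle mean for HMOX1, NQO1, TXNRD1 and EPHX1 in 60 libraries by their place in the library order; colours mark dose, and the dashed line is the step after library 31. TXNRD1 and NQO1 drop at the line (-0.30 and -0.20 in the fit), and EPHX1 rises (0.27). HMOX1 is highest at points of 500 µg/mL, and its lowest CPM, 122 in a Soyo-san library at 20 µg/mL, lies after the line. In the TMM-scaled fit HMOX1 shifted by 0.02.

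Over the 19 groups the range of group means was 0.22 log2 units at the median of the 38 genes and 0.32 at the median of all genes tested, which were not matched on level. A range under 0.5 was found for 37 of the 38. HMOX1 had the widest range, 0.70 log2 units, from Soyo-san at 20 µg/mL to Menthae Herba at 500, and TRIM16 followed with 0.42. HMOX1 ranked 18 by fold change among the 155 genes that rose from 20 to 500 µg/mL of Menthae Herba, 63 among 129 in Guibi-tang and 51 among 57 in Soyo-san. By p it ranked 8, 15 and 40 among all 17256 genes in these comparisons. Across single libraries NFE2L2 ran from 110 to 130 CPM, a ratio of 1.19.

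Soshiho-tang gave the highest HMOX1 level of the series, in 1 library without a replicate check. HMOX1 had 254 CPM at 500 µg/mL, 141 CPM at 100 and 147 CPM at 20, beside 141 to 151 CPM in vehicle, a log2 ratio of 0.80 to vehicle and 0.79 to 20 µg/mL. It was the only gene of the 38 at least 1.5-fold above the vehicle mean, and 0 were 1.5-fold below it, where, of genes averaging at least 1 CPM, 2.52% were above and 1.31% below by that size. Against the library at 20 µg/mL it was again the only gene past 1.5-fold, where 2.69% of all genes were above and 1.24% below. ABCC3 reached 599 CPM (log2 ratio 0.58 to vehicle, just short of 1.5-fold), SLC7A11 631 CPM (0.46) and GCLM 276 CPM (0.31), all above every vehicle library. NQO1 had 1309 CPM, below the vehicle range of 1473 to 1514 CPM (-0.19). At 100 and 20 µg/mL 0 of the 38 passed 1.5-fold in either direction, where 0.713% and 0.793% of all genes were above and 0.931% and 1.05% below. All 3 libraries lay after the step and vehicle before it.

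Other lists of the same biology were read beside the 38 genes at 500 against 20 µg/mL. Of 23 further NRF2-associated genes tested, 2 fell in Menthae Herba, the glutaredoxin GLRX (-0.28) and HTATIP2 (-0.18), and 1 rose in Guibi-tang, the autophagy receptor SQSTM1 (0.59; 1103 CPM against 697.9), whose protein can bind KEAP1. None of these 23 was called in the other 4 extracts. Of 9 partners and repressors of NRF2, 1 was called, the small MAF gene MAFK, which fell with Menthae Herba by 0.46 on the log2 scale. Of 12 genes of haem synthesis and iron uptake, 2 rose with Menthae Herba, the ferrochelatase FECH (0.23) and the iron exporter SLC40A1 (0.21). Since NQO1 and ALDH3A1 are known targets of the aryl hydrocarbon receptor (AhR) too, 4 genes of its response were read. All 4 rose with Menthae Herba, among them CYP1A1 (2.52), TIPARP (1.32) and AHRR (1.19), and 3 each with Soyo-san (CYP1A1 1.25) and Saposhnikoviae Radix (CYP1A1 0.88), while Guibi-tang raised CYP1B1 by 0.19. Of 7 ATF4 targets, ASNS (0.22) and PHGDH (0.25) rose with Menthae Herba and TRIB3 (0.32) with Guibi-tang. Beside the Menthae Herba calls, KRT8 fell by 0.20 and COL1A1 rose by 0.27. The summed level of the 5 epithelial markers was 5230 to 5490 CPM at 500 against 5910 to 6254 CPM at 20, and that of 7 markers of other cell types was 44.9 to 51.9 CPM against 41.2 to 42.8 CPM. Nearly all of the latter sum came from COL1A1 and CD68, PTPRC, VWF and DCN being at or near 0 CPM. Against vehicle at 500 µg/mL, 3 of the 5 epithelial markers were called lower in Menthae Herba and 3 in Guibi-tang. In Soyo-san 2 were lower and 1 higher, in Okbyeongpung-san 1 was lower, and in the other extracts 0 were called. The shares of all genes called are those given above. The part of these shifts in the result was not tested.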

How the data were processed

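Libraries were made from A549 RNA with a directional kit and sequenced as paired-end reads, per the labels' protocols. Per the submitters' processing notes, FastQC 0.11.9, Trim Galore 0.6.5, STAR 2.7.3a and RSEM 1.3.3 were used with hg38 (GRCh38). The authors deposited RSEM expected counts per gene, of which 10.5% of values were not whole, and these were rounded here. The annotation release and strand setting are not given in the sources used here. All per-library columns were used. Symbols came from a table of gene names (56558 IDs matched, 3620 without a symbol) and positions from GENCODE 29. No library was a copy of another of its group by a chi-square test of counts (1.88 to 73.6 for each degree of freedom, 57 pairs within groups). Libraries of different groups, and those of Soshiho-tang, were not compared in this way.

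The main test was edgeR 4.0.16 (R 4.3.3, limma 3.58.1; TMM, filterByExpr, 1 coefficient per group), in 29 comparisons, each with Benjamini-Hochberg adjustment. It was tried on simulated data with the same spread for every gene and no step, which differ from these libraries in both. Standard errors derive from the quasi-likelihood statistic. Genes named are called genes of the list, HMOX1 and NQO1 throughout, the regulators, and at most 3 called genes of each further list. Alternatives were DESeq2 1.42.0, library-total scaling, leaving out mitochondrial genes, no filter, a step term, replicate blocks, 2-group fits and leave-one-out fits. Replicate numbers paired the libraries by the correlation of deviations in 1 comparison, Saengmaek-san 500 against 20 (0.12 to 0.34). A replicate block called 0 genes there, as did the fit without it, and a block within the library series called 2 of all genes and 0 of the 38. The genes and lists were chosen with earlier results of these data known.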

Additional observations from a re-analysis of the deposited data

Results flagged for a closer look

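The change of HMOX1 from 20 to 500 µg/mL differed between extracts in 3 of 5 tests of the difference itself. It was larger with Menthae Herba than with Saposhnikoviae Radix by 0.37 log2 units, smaller with Soyo-san than with Menthae Herba (-0.32), and smaller with Saengmaek-san than with Guibi-tang (-0.27). In each pair the extract with the larger change also had the higher HMOX1 level at 500 µg/mL, 219.8 against 171.8 CPM, 219.8 against 150.6 CPM and 184.4 against 144.6 CPM.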

How the results depend on the processing

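For 52 fold changes (genes called in the fit of 57 libraries, with HMOX1 and NQO1 in every comparison at 500 µg/mL), 774 values under an alternative were computed. Of these, 693 stayed called or stayed uncalled, 69 lost and 12 gained a call, and no called value changed sign. The sign of values called in neither fit was not compared in this tally, and some changed, as for NQO1 in Guibi-tang. Other genes that an alternative called are outside that tally and enter the following counts, for most of which the calls over all genes are also given. Counts for 500 against 20 µg/mL (4 in Menthae Herba, 0 in Saposhnikoviae Radix, 2 in Guibi-tang, 1 in Soyo-san) became 2, 0, 1 and 1 with library totals. Over all genes, 420, 14, 172 and 106 calls became 302, 11, 189 and 73. Menthae Herba had 2 without the filter (454 of all genes). Fits of 2 groups gave 8, 1, 0 and 0 (887, 35, 14 and 34 of all genes), and the libraries before the step 7 and 1 for the herbs (905 and 31 of all genes). Saposhnikoviae Radix also had 1 with DESeq2, the step term and a block within the library series (24, 27 and 23 of all genes).

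Against vehicle at 500 µg/mL the counts were 4 in Menthae Herba, 2 in Saposhnikoviae Radix, 1 in Saengmaek-san, 3 in Guibi-tang, 6 in Soyo-san and 1 in Okbyeongpung-san. The step term gave 10, 7, 4, 8, 11 and 9 in that order (2099, 1000, 376, 1724, 2016 and 2155 of all 17256 genes). The libraries before the step gave 16, 13, 4 and 9 for the first 4 extracts (2742, 1702, 400 and 1933 of all genes). Fits of 2 groups gave 17, 16 and 0 for the first 3, 15 in Soyo-san and 21 in Okbyeongpung-san (3023, 2218, 0, 2132 and 2854 of all genes). DESeq2 gave 5 in Saposhnikoviae Radix, 3 in Saengmaek-san, 6 in Guibi-tang and 3 in Okbyeongpung-san (400, 147, 898 and 689 of all genes). Library totals gave 0 in Saengmaek-san, 2 in Soyo-san and 0 in Okbyeongpung-san (42, 520 and 265 of all genes). Without the filter there were 0 in Saengmaek-san, 5 in Guibi-tang and 4 in Okbyeongpung-san (189, 686 and 802 of all genes). At 100 µg/mL, 3 genes were called in at least 1 extract, 10 without the filter, 10 with the step term, 5 with DESeq2 and 5 before the step; over all genes these settings called 245 to 757, 178 to 1241, 161 to 407 and 211 to 1116 per extract. At 20 µg/mL there were 2, and 0, 12, 13, 6 and 6 with library totals, no filter, the step term, DESeq2 and before the step; over all genes 30 to 98, 214 to 1075, 169 to 1653, 119 to 525 and 197 to 1091 per extract. Tests of differences between extracts called 3, 2 without the filter and 1 with library totals. The cause of these shifts was not tested.

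Leaving out 1 library gave 3 to 4 calls in Menthae Herba, 1 to 2 in Guibi-tang, 1 in Soyo-san and 0 in the other extracts for 500 against 20 µg/mL. Against vehicle it gave 3 to 4, 0 to 2, 0 to 1, 2 to 4, 3 to 5 and 1 in the order above, 1 to 2 at 100 µg/mL and 2 at 20. The differences between extracts gave 2 to 3, and Soshiho-tang 1 to 2 genes past 1.5-fold when 1 vehicle library was left out. The share of all genes was not computed for any of these leave-one-out counts. With a block for the replicate number of the titles no count of calls among the 38 changed (4 in Menthae Herba and 2 in Guibi-tang for 500 against 20). A replicate block within the library series gave 6 in Menthae Herba and 1 in Saposhnikoviae Radix (592 and 23 of all genes, against 420 and 14 without it). Outside Saengmaek-san 500 against 20 the numbers did not pair the libraries, and 17 of 69 same-number correlations were the best of their sample. The fits restricted to one side of the step, the alternatives for the differences, and those for Soshiho-tang were chosen after seeing the data. With 3 libraries per group, small changes in single genes lie below what these data resolve.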
